A study of Rattus norvegicus with 8 samples.

Results

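Gpnmb, Mmp12 and Lgals3 are genes of activated macrophages, and their mRNA was measured in the kidney of rats fed a control or a high phosphorus (HP) diet. The genes were chosen for their large share of the variation between the arrays, and every probe set whose only gene symbol was one of the 3 names was taken. Each gene had 1 probe set, so the members are 3 of 14217 measured genes and 3 of 31042 probe sets. Total RNA came from the left kidney of male Wistar rats aged 8 weeks, and each of the 8 Affymetrix rat arrays held the RNA of 1 rat. The control rats (n = 4) ate an AIN-93G based diet with 0.3% phosphorus and the HP rats (n = 4) one with 1.2% phosphorus, for 24 days after 7 days on the control diet. The HP diet held KH2PO4 in place of corn starch and so added potassium as well. From 5 rats per group the authors had picked 4 average ones by urine volume and kidney phosphorus content, so the rats were selected before their arrays were compared.

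Gpnmb encodes glycoprotein nmb, a transmembrane protein of phagosomes and lysosomes that is also made by osteoblasts and melanocytes. Mmp12 encodes macrophage elastase, a secreted metalloproteinase that cleaves elastin. Lgals3 encodes galectin-3, a lectin that binds galactose-containing glycans on the cell surface and in the matrix. All of them are known to be switched on in macrophages that take up debris or lipid, and galectin-3 is also made by epithelial cells of the renal tubule and collecting duct. The samples were whole kidney, in which more cells of a type and more RNA per cell cannot be told apart.

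The promoters of Gpnmb and Mmp12 are shown first because the values of these genes ordered the HP rats alike, as described below. The 250 bases before each gene's start were taken from RefSeq (build GRCr8), and Lgals3 has no entry in that table. The Gpnmb window lies at chr4:79340878-79341127 and the Mmp12 window at chr8:12866402-12866651, both on the plus strand and both ending at the base before the annotated gene start. Capitals mark the motifs that were found.
Gpnmb: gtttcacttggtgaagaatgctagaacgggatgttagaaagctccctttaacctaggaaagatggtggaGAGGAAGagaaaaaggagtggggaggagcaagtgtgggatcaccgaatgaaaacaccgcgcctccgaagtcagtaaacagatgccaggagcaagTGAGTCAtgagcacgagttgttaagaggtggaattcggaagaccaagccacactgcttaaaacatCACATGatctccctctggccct
Mmp12: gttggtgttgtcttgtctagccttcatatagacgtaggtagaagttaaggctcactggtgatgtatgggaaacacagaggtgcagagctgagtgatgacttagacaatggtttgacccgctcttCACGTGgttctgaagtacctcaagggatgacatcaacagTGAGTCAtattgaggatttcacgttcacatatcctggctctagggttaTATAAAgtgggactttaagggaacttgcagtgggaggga
Both strands were searched for 5 motifs. The AP-1 motif TGANTCA, read by Fos and Jun dimers, occurred once in each window as TGAGTCA, in both genes starting 87 bases before the gene start, and 6.34% of 33469 promoters of this length hold it. The E-box CACGTG, which MiT-TFE factors can bind, occurred in the Mmp12 window 126 bases before the start (5.59% of promoters). The E-box CATGTG occurred in the Gpnmb window as CACATG on the printed strand, 22 bases before the start (12.1% of promoters). The PU.1 box GAGGAAG, named for a myeloid transcription factor, was found in the Gpnmb window at 181 bases (10.2% of promoters) and the TATA box TATAAA in the Mmp12 window at 39 bases (12.9% of promoters). The motifs do not overlap each other in these windows, and a match is a description of the letters and not of a bound site.

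All values are those deposited by the authors, in which the distribution free weighted method (DFW) had turned the probes of a set into 1 value per array on a log scale. The scale is read here as log2, although its base is not stated. The method scales down differences according to how widely a probe set varies over the arrays. A difference in these values is therefore no log2 fold change, and it is given with its standard error (SE) and as a multiple of the pooled SD within diets, named the standardized difference. Over all probe sets the median SD was 2.05e-06 among the control arrays and 2.02e-06 among the HP arrays, so the members are among the few probe sets on which the deposited values move visibly. The members were chosen on these same values, so their levels and differences are a description and carry no test.

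Gpnmb on the control arrays 1 to 4 had values of 7.248, 7.236, 7.215 and 7.216. On the HP arrays 1 to 4 it had 7.769, 7.984, 7.822 and 7.637. The diets did not overlap, and the lowest HP array was 0.389 above the highest control array. The mean was 7.23 ± 0.0163 (SD, n = 4) in control rats and 7.80 ± 0.144 (SD, n = 4) in HP rats, which gave a difference of 0.574 (SE 0.0722) and a standardized difference of 5.62.

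Mmp12 on the control arrays 1 to 4 had values of 6.645, 6.650, 6.641 and 6.649. On the HP arrays 1 to 4 it had 6.789, 6.881, 6.827 and 6.759. The diets again did not overlap, with a gap of 0.109 between the highest control and the lowest HP array. The macrophage elastase transcript thus averaged 6.65 ± 0.00409 (SD, n = 4) on the control diet and 6.81 ± 0.0523 (SD, n = 4) on the HP diet, a difference of 0.168 (SE 0.0263) and a standardized difference of 4.52.

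Lgals3 on the control arrays 1 to 4 had values of 8.99998, 9.0010, 9.0008 and 9.0071. On the HP arrays 1 to 4 it had 9.0442, 9.0636, 9.0439 and 9.0338. Control array 4 stood apart from the other control arrays but stayed 0.0267 below the lowest HP array. The galectin-3 transcript averaged 9.002 ± 0.00327 (SD, n = 4) in control rats and 9.046 ± 0.0125 (SD, n = 4) in HP rats, a difference of 0.0441 (SE 0.00645) and a standardized difference of 4.84.

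**Figure D1:**
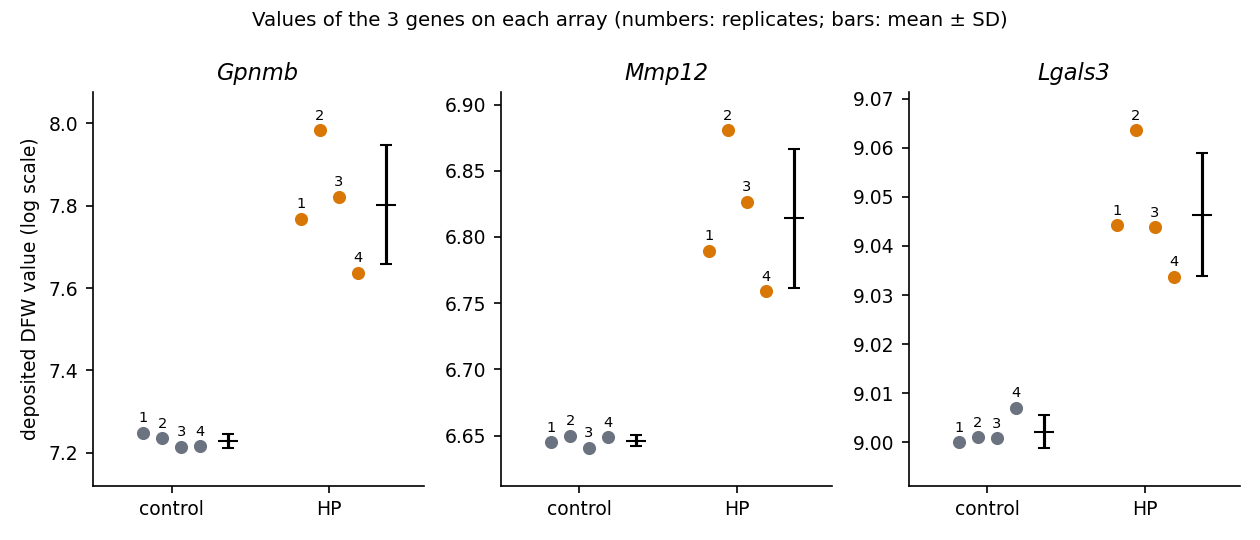
Deposited DFW value (log scale, vertical axis, own range for each gene) of Gpnmb, Mmp12 and Lgals3 on the 4 control and 4 HP arrays, with numbers for the replicates and bars for mean ± SD. The diets do not overlap in any of the 3 genes, HP 2 is the highest and HP 4 the lowest HP array in each, and the control arrays lie close together.

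The size of a difference and its steadiness ranked the members differently. By the difference in the deposited values Gpnmb was rank 1, Mmp12 rank 4 and Lgals3 rank 8 of all probe sets, whereas by the standardized difference they were ranks 197, 374 and 309. Of all probe sets, 7.09% had every HP array above every control array, as the members had, and 5.81% had every HP array below. By limma with an adjusted p under 0.05, 2.95% passed as higher on the HP diet, and by rank products, a test of ranked differences between pairs of arrays, 3.4% passed as higher and 2.31% as lower at a false discovery rate under 0.05. The rule used the share of the total sum of squares, of which Gpnmb held 49.6%, Mmp12 4.43% and Lgals3 0.302%, together 54.3%. Lgals3 was rank 9 in this order, and the next probe set, of the transcriptional repressor gene Bcl6, held 0.277%. Of the variation of Bcl6 only 0.253% lay between the diets, against 91.3% for Gpnmb, 87.2% for Mmp12 and 88.6% for Lgals3.

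The HP rats differed from each other far more than the control rats did in these genes. The SD among the HP arrays was 8.83 times that among the control arrays for Gpnmb, 12.8 times for Mmp12 and 3.82 times for Lgals3. The median of this ratio over all probe sets was 1.01, and the ratio of Gpnmb was above that of 99.7%, of Mmp12 above that of 99.9% and of Lgals3 above that of 97.2% of them. Such a ratio was not theirs alone, as Csf1r, the gene of the macrophage growth factor receptor, had 10.8. The members were chosen for their variation between these arrays, of which the spread among HP rats is a part. Their place among all probe sets is therefore a description and carries no test. The 4 HP arrays spanned 60.4% of the difference between the diet means for Gpnmb, 72.5% for Mmp12 and 67.6% for Lgals3. The control arrays spanned 5.82% and 5.37% of it for Gpnmb and Mmp12 and 16.1% for Lgals3. With each array left out in turn, the ratio stayed between 5.87 and 12.3 for Gpnmb and between 8.26 and 20.9 for Mmp12. For Lgals3 single arrays decided it, as it was 22.4 without control 4 and 1.82 without HP 2. For Gpnmb it was 5.87 without HP 2, and for Mmp12 8.26 without HP 2 and 20.9 without control 3.

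**Figure D2:**
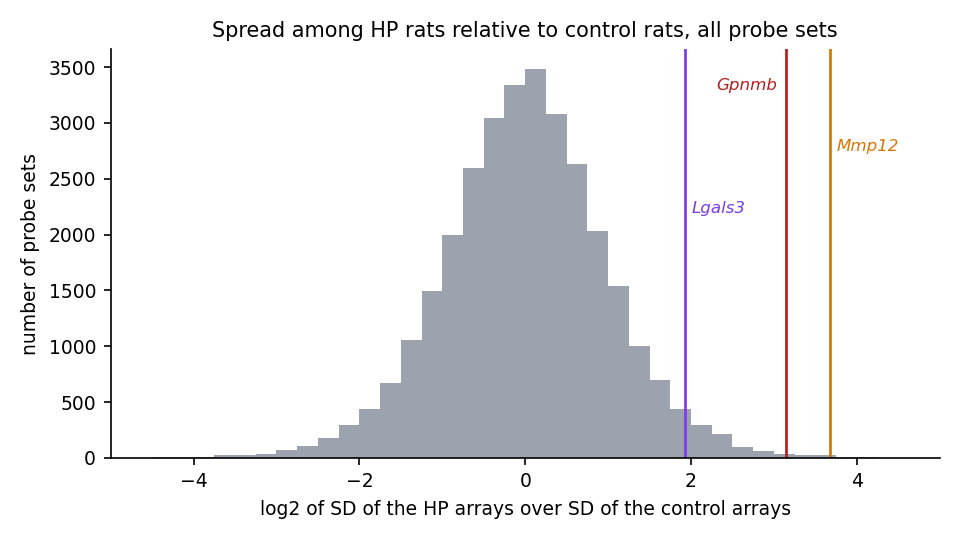
Number of probe sets (vertical axis) by the log2 ratio of the SD among the HP arrays to the SD among the control arrays (horizontal axis), for all 31042 probe sets, with lines at the 3 members. Gpnmb and Mmp12 lie in the far right tail, with ratios of 8.83 and 12.8, and Lgals3 at 3.82 lies closer to the bulk.

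The 3 genes placed the HP rats in nearly the same order. On a scale with the control mean at 0% and the HP mean at 100%, HP 2 stood at 132% for Gpnmb, 140% for Mmp12 and 139% for Lgals3. HP 4 was the lowest of the HP rats in each gene, at 71.1%, 67.3% and 71.5%. HP 1 and HP 3 lay between them, at 94.1% and 103% for Gpnmb, 85.4% and 108% for Mmp12, and 95.1% and 94.3% for Lgals3, where their order was turned but close to a tie. The control rats had no shared order, since the highest was control 1 for Gpnmb, control 2 for Mmp12 and control 4 for Lgals3.

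Havcr1 and Spp1, which with Gpnmb and Mmp12 make up the 4 probe sets with the most variation, spread the HP rats less widely relative to the difference between diets. Havcr1, the gene of kidney injury molecule 1, a receptor on injured tubule cells, placed the HP arrays 1 to 4 at 108%, 122%, 78.4% and 92.4%, with HP 3 lowest. Spp1, which encodes osteopontin, placed them at 105%, 112%, 92.2% and 91%, which is the order of Lgals3 with HP 3 and HP 4 close to a tie. The HP arrays spanned 43.2% of the diet difference for Havcr1 and 21.2% for Spp1. The SD ratio was 4.85 and 0.92, both below the values of Gpnmb and Mmp12, but that of Havcr1 was above the 3.82 of Lgals3. HP 2 was the highest HP array in all 5 genes, and it was often so elsewhere. Without the members, HP 2 was the highest HP array in 29.9% of all probe sets and in 61.2% of the 912 that passed as higher, and HP 2 was highest with HP 4 lowest in 10.3% and 27.4%. What sets HP 2 and HP 4 at the ends was not tested.

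**Figure D3:**
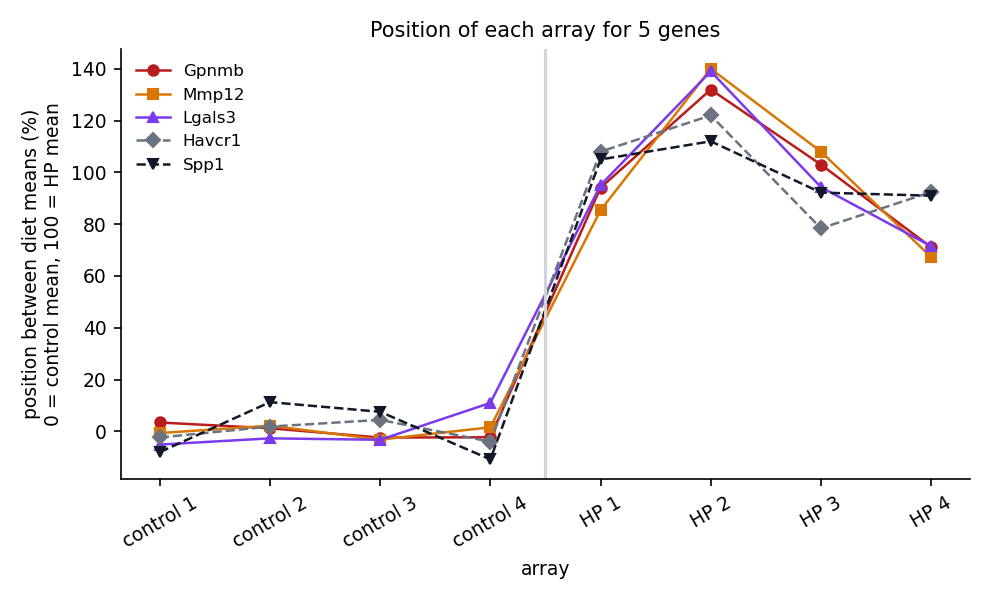
Position of each of the 8 arrays (horizontal axis) between the diet means of its gene (vertical axis, 0% at the control mean and 100% at the HP mean) for the 3 members (solid lines) and for Havcr1 and Spp1 (dashed lines). HP 2 is the peak in all 5 genes, while HP 4 is the lowest HP array in the members and in Spp1 but not in Havcr1.

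Deviations from the diet means gave the same picture as a correlation over the 8 arrays. Pearson's r was 0.980 between Gpnmb and Mmp12, 0.920 between Gpnmb and Lgals3 and 0.926 between Mmp12 and Lgals3, and Spearman's rho was 0.857, 0.405 and 0.548. The arrays are the same for all pairs, 4 per diet, and these are descriptions without a p. Within the HP arrays r was 0.987, 0.975 and 0.951 for these pairs, and within the control arrays 0.213, -0.603 and 0.464. Without HP 2 and HP 4, the arrays on which the first gene of each pair deviated most from its diet mean relative to the median deviation, r was 0.807 for Gpnmb and Mmp12, -0.396 for Gpnmb and Lgals3 and 0.0784 for Mmp12 and Lgals3. Only HP 1 and HP 3 were then left on the HP diet, and they were close to a tie in Lgals3, in which control 4 stood apart. These values therefore cannot show on which rats the likeness of the genes rests.

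Among 20823 other probe sets with 1 gene symbol, those whose deviations followed the members most closely were compared by the same r over the 8 arrays. An r over 0.95 was reached by 19 of them with Gpnmb, 20 with Mmp12 and 28 with Lgals3. Fcgr2b, an inhibitory receptor for the Fc part of IgG on macrophages and B cells, came first for both Gpnmb (r = 0.989) and Mmp12 (r = 0.981). It was higher in HP rats by 0.00286 (SE 0.000436, limma adjusted p = 0.019), with no overlap of the diets. For Gpnmb it was followed by A3galt2, a glycosyltransferase gene, by Nthl1, which encodes a DNA repair glycosylase, by the chaperonin subunit gene Cct3 and by Cst6, which encodes a cysteine protease inhibitor. Their r ran from 0.972 to 0.985 and none of these 4 passed in limma (adjusted p = 0.098 to 0.94). For Mmp12 the next were Noct, a circadian gene (adjusted p = 0.20), Laptm5, the calcium release channel gene Ryr2 (0.89) and Cct3. Laptm5, a lysosomal membrane protein of blood-derived cells, had r = 0.980 and was higher in HP rats by 0.00124 (SE 0.000151, adjusted p = 0.0099), while its other probe set did not pass (0.054).

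Lyst, a regulator of lysosomal traffic, was the gene most like Lgals3 (r = 0.991, adjusted p = 0.087), followed by Ubald1 (r = 0.985, adjusted p = 1.0) and Ehd4, which acts in endocytic recycling (r = 0.984, adjusted p = 0.036). Ctsk, the collagen-cleaving protease cathepsin K, had r = 0.984 and was above every control array in every HP rat. Its difference of 0.00937 (SE 0.00216) did not pass (adjusted p = 0.058). The deubiquitinase gene Otud4 was the fifth (r = 0.983, adjusted p = 0.16). The diets overlapped in Nthl1, Cct3, Noct, Ryr2 and Ubald1, so a close r with a member did not require a difference between the diets.

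The known surroundings of the 3 genes were examined in 19 lists with 231 measured genes, each by its probe set of highest mean. Of these genes 62 were higher and 1 was lower in HP rats in limma, against 2.95% and 1.13% of all probe sets (median standardized difference over all probe sets -0.21). Another scaling of the arrays ended many of these calls. Of the list genes called and named here, Cd14, Mpeg1, Cd53, Ctsz, Timp1, Slpi, Lox, Fn1, Ccl2, Vim, Cp, Havcr1 and Spp1 passed in the same direction both after centring each array on its median and after quantile normalization. All others lost their call after centring. It moved every difference by the same -6.1e-05, the difference in array medians between the diets, and so says nothing about a single gene of small difference. Genes of much larger difference lost their call too. A2m went only from 0.00191 to 0.00185 (limma adjusted p = 0.37 after centring), Lgals1 from 0.00199 to 0.00193 (0.25) and Cd44 from 0.00178 to 0.00172 (0.74). After centring, passing went with the size of the difference in the genes given. Cd14 passed at 0.00236 (0.014), while A2m, with a standardized difference of 10.4, did not. Ctsk, which had not passed (0.058), had a limma adjusted p of 2.1e-55 at a difference of 0.00931. A call kept after centring thus marks a large difference and does not show that the call is robust to scaling. Why the calls changed was not tested. Quantile normalization also ended the calls of Aif1, Ctsd, Ctss, Tfe3, Mmp14, Timp3, Ltbp4, Il34, Il10ra, Irf8, Cd83, Lck and Scnn1b, and Abca1, Npc2, Itgb1, Flt3 and Nfatc1 were called lower after it. It changed small differences by more than their own size. Npc2 went from 2.79e-05 to -0.00123, Itgb1 from 7.04e-05 to -0.000953 and Ctsd from 8.9e-05 to 1.67e-15. For genes of such small difference, a call that it ended or turned, here or below, says nothing about the single gene. Genes called higher after centring and after quantile normalization numbered 8 and 13 of the macrophage markers, 0 and 1 of the dendritic cell markers, 5 and 6 of the tubular injury genes, 1 and 4 of the uptake genes, 2 and 3 of the lysosomal genes, 2 and 4 of the protease inhibitors, 1 and 5 of the elastic fibre genes, 1 and 2 of the galectin-3 ligands, and 1 and 1 of the growth factors and cytokines.

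Among 23 measured macrophage and monocyte markers 15 passed, all of them higher, with a median standardized difference of 3.61. Aif1, the microglia and macrophage protein Iba1, had a standardized difference of 6.13 (adjusted p = 0.0086) and its other probe set pointed the other way without passing (-2.26, 0.14). Mpeg1, a pore-forming protein of phagocytes, and Cd53, a tetraspanin of leukocytes, had 5.72 (adjusted p = 0.010, second probe set 1.08 and 0.45) and 5.38 (0.012), and Cd14, a receptor for bacterial lipopolysaccharide, 4.56 (0.021). The number of these markers that passed was 3 without HP 1, control 2 or control 3, 4 without control 1 or control 4, 6 without HP 3, 13 without HP 2 and 16 without HP 4. Aif1, Mpeg1 and Cd53 passed without any 1 array. Cd14 lost its call without 4 of the 8 arrays (adjusted p up to 0.062).

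The macrophage markers had the same HP rats at the ends as the members. Averaged over the 23 markers, the deviation from the control mean in pooled SDs was 3.30, 4.83, 3.14 and 2.41 on HP arrays 1 to 4, against -0.32 to 0.35 on the control arrays. The summed deposited level of the 23 markers was 178.948 to 178.954 on the control arrays and 178.976 to 179.001 on the HP arrays. This order, HP 2, HP 1, HP 3 and HP 4, is that of Lgals3, while Gpnmb and Mmp12 had HP 3 above HP 1. The average was also highest on HP 2 and lowest on HP 4 for the tubular injury genes (5.09, 5.70, 4.15 and 4.05), for the genes of debris and lipid uptake (1.75, 2.52, 1.71 and 1.54) and for the macrophage growth factors and cytokines (1.37, 1.84, 1.12 and 0.95), so it was not particular to macrophage markers. The SD among the HP arrays over that among the control arrays had a median of 2.27 over the 23 markers and ran from 0.278 to 10.8, the latter in Csf1r, which was named after its value had been seen. The averages of macrophage markers and of tubular injury genes thus both had HP 2 highest and HP 4 lowest, as the members had. Single genes of these lists followed Gpnmb unequally. Among the tubular injury genes the r of deviations with Gpnmb ran from -0.555 to 0.828, the latter in Vim. Most macrophage markers had an r with Gpnmb above that of Vim, but others had less, down to -0.115. The part that more macrophage RNA had in the values of the members was not tested. The classic macrophage marker Cd68, which is also in the uptake list, had a standardized difference of 3.61 (adjusted p = 0.037, lost without 6 of the 8 arrays), and its r with Gpnmb was 0.931.

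Melanocytes, osteoblasts and granulocytes are other cells that can make some of these transcripts or their products. None of the 6 measured melanocyte markers passed in limma, 0 had an unadjusted p under 0.05 and 0 passed by rank products, with a median of -0.38. Tyr, Tyrp1, Dct, Mlana, Pmel and Sox10 lay between -0.94 and 0.60, and none of them was above the median level of all probe sets. None of 12 neutrophil and mast cell markers passed in limma (1 higher at an unadjusted p under 0.05 and 1 higher by rank products, median -0.40), and 0 of them were above the median level. Of 8 osteoclast and osteoblast markers, Nfatc1, a transcription factor of osteoclasts and T cells, was called higher (3.52, adjusted p = 0.040, lost without 7 of the 8 arrays, and turned in direction by quantile normalization). Ctsk, which followed Lgals3 closely as given above, is also in this list (3.07, adjusted p = 0.058, no overlap of the diets). Acp5, the osteoclast phosphatase, was at 1.27 (adjusted p = 0.37). The bone matrix side of the list, Bglap, Ibsp, Dmp1 and Phex, lay between -0.70 and 0.21 without passing, all below the median level of all probe sets. Runx2 and Sp7 were not measured. Those bone genes were named after their values had been seen.

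Dendritic cells and lymphocytes can be confused with macrophages in whole tissue, and 4 of 5 measured dendritic cell markers were higher (2 to 3 without 1 array). Irf8, a transcription factor of dendritic cells and monocytes, had the largest standardized difference among the measured genes of the lists at 16.55 (adjusted p = 0.00094), Clec9a had 8.88 (0.0042), Cd83 4.65 (0.019) and Flt3 3.40 (0.043), while Batf3 was at 0.49 (0.79). Flt3 lost its call without each of the 8 arrays (adjusted p up to 0.097), and Flt3 and Cd83 turned in direction after quantile normalization. Only 2 of these 5 markers were above the median level of all probe sets. Of 13 T, NK and B cell markers Lck (6.78, adjusted p = 0.0067) and Cd3g (4.25, 0.024, lost without 6 of the 8 arrays) were higher, with 1 to 2 calls without 1 array.

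Tubular genes frame the epithelial side of Lgals3. Of 14 tubular injury genes 8 were higher, with a median standardized difference of 4.40. Vim, the intermediate filament vimentin, had an r of 0.967 with Lgals3 and a difference of 0.00634 (SE 0.000598, adjusted p = 0.0058). Cp, Havcr1 and Spp1, which with Vim had the smallest p of this list, followed Lgals3 less closely (r = 0.794, 0.653 and 0.471). Of 14 collecting duct markers 1 passed, the sodium channel subunit gene Scnn1b (3.53, adjusted p = 0.044, lost without 7 of the 8 arrays and turned in direction by quantile normalization). Of the others, 4 were lower at an unadjusted p under 0.05, and 1 was lower by rank products, the anion exchanger gene Slc26a4 (-2.99, limma adjusted p = 0.063). The median was -0.30. None of 14 proximal tubule markers passed in limma (3 lower and 0 higher at an unadjusted p under 0.05, and 0 by rank products), with a median of -1.35. Slc34a1 was counted by its probe set of highest mean (-1.5), while its other probe set was at -3.03 (limma adjusted p = 0.06). The paper lists this gene as lower on the HP diet by rank products and reports the same by in situ hybridization. Every marker of both segments was above the median level of all probe sets.

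Genes of debris and lipid uptake and of the phagocyte lysosome changed in part. Of 23 measured genes of the former list 5 were higher, with a median standardized difference of 1.70. Olr1, a scavenger receptor for oxidized lipoprotein, was at 6.17 (adjusted p = 0.0084) and Axl, a receptor for dying cells, at 5.89 (0.0095), and both passed without any 1 array. The level of Olr1 was above that of only 9.11% of all probe sets, and that of Axl above 78.1%. The cholesterol exporter gene Abca1 was at 3.77 (0.033) but lost its call without 6 arrays and turned in direction after quantile normalization. Of 18 lysosomal proteases and hydrolases 5 were higher, with a median of 1.27, including Ctsd (7.32, adjusted p = 0.0060), the aspartic protease cathepsin D. Npc2, a cholesterol-binding protein of the lysosome, was at 5.46 (0.012) and turned in direction after quantile normalization. The thiol protease genes Ctss (3.84, 0.032) and Ctsz (3.78, 0.033) lost their calls without 6 arrays each, but their deviations followed Lgals3 with an r of 0.953 and 0.867. The count of the uptake list was 2 to 3 without 1 array and that of the lysosomal list 2 to 5.

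MiT-TFE transcription factors are known regulators of Gpnmb and of lysosomal genes. Mitf, Tfeb and Tfec were at standardized differences of -0.23, -0.88 and -0.07 (adjusted p = 0.93, 0.82 and 0.98). Tfe3 was at 4.48 (adjusted p = 0.022), with 2 other probe sets that did not pass (0.95 and 0.98), a call that was lost without 5 of the 8 arrays and a direction that turned after quantile normalization.

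Of 9 measured relatives, partners and sheddases of Gpnmb, 2 were higher, with a list median of 0.92. Cd44, a hyaluronan receptor that can bind Gpnmb, was at 6.89 (adjusted p = 0.0067) and its other probe set passed too (0.023). Itgb1, the integrin beta 1 subunit, was at 6.50 (0.0072), but after quantile normalization it was lower. The integrin subunit Itgb3 was at 3.08 (0.057), Egfr at 1.36 (0.34) and Itga5 at -0.15 (0.95). The heparan sulfate proteoglycan Sdc4 was at -0.15 (1.0) and Pmel, the melanosomal paralog of Gpnmb, at -0.62 (0.70). Adam10 and Adam17, proteases that release ectodomains of membrane proteins, were at -0.48 (0.80) and 0.92 (0.53).

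Of 16 matrix metalloproteinase genes other than Mmp12, 2 were higher (1 to 2 without 1 array), with a median standardized difference of 0.14. Mmp2, the gelatinase A of stromal cells, was at 7.58 (adjusted p = 0.0056) with a second probe set that did not pass (0.72). Mmp14, a membrane-bound activator of Mmp2, was at 4.42 (0.022), lost its call without 4 of the 8 arrays and turned in direction after quantile normalization. Mmp15 was at 2.36 (0.13) and Mmp24 at -2.11 (0.16). Mmp12 lies in a cluster of metalloproteinase genes in the RefSeq annotation, and the 4 neighbours that were in the list did not pass. Mmp13, the gene directly before it, was at -0.88 (0.60), and Mmp3, Mmp10 and Mmp8, which follow within 5 genes, were at -1.50 (0.30), -0.08 (0.97) and 1.02 (0.49). These 4 were picked for their place next to Mmp12 after their values had been seen.

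Metalloproteinases and other elastases are held in check by inhibitors. Of 9 measured protease inhibitors 4 were higher and 1 was lower, with a median of 1.88. The broad inhibitor alpha-2-macroglobulin (A2m) was at 10.40 (adjusted p = 0.0038), Slpi, an inhibitor of leukocyte elastase, at 6.96 (0.0066), and Timp1, an inhibitor of metalloproteinases, at 6.84 (0.0067). These calls held without any 1 array, although the level of A2m was above that of only 11.4% of all probe sets (Slpi 74.1%, Timp1 63.8%). Timp2 was at 4.11 (0.026), lost without 5 arrays and with a second probe set at -0.51 (0.79). Timp3 was lower (-4.82, 0.018), as was 1 of its 3 other probe sets (0.016), and the call was lost without 3 arrays. Reck (1.88, 0.20), Serpinb1a (1.00, 0.49), Serpina1 (-0.52, 0.76) and Timp4 (-1.64, 0.25) did not pass.

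Of 15 elastic fibre genes 8 were higher, with a median standardized difference of 3.30 and a count of 4 to 7 without 1 array. The microfibril gene Fbn1 was at 8.25 (adjusted p = 0.0048), the cross-linking enzymes Loxl1 and Lox at 6.70 (0.0068) and 6.06 (0.0089), and the latent TGF-beta binding protein gene Ltbp4 at 5.43 (0.012). The deviations of Lox followed Mmp12 with an r of 0.924, whereas those of Fbn1 had an r of -0.0547 with Mmp12. Elastin itself (Eln), the substrate that gave Mmp12 its common name, was at 0.55 (0.74), and its other probe set did not pass (0.12). Eln was named for its role after its value had been seen.

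Lgals3 had 1 relative that passed. Of 7 other measured galectin genes Lgals1, a lectin of stromal cells, was higher by 0.00199 (SE 0.000238, standardized difference 5.92, adjusted p = 0.0094), held its call without any 1 array and had an r of 0.946 with Lgals3. Lgals9 was at 2.26 (0.13), and Lgals2, Lgals4, Lgals7, Lgals8 and Lgals12 lay between -0.48 and 0.49. Of 12 measured ligands of galectin-3 and enzymes of their glycans 3 were higher, with a median of 1.48. Besides Itgb1 these were Fn1, the matrix glycoprotein fibronectin (7.47, 0.0059), and Lgals3bp, the galectin-3 binding protein (6.04, 0.0089). The laminin gene Lamc1 was at 3.04 (0.060).

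Signals that recruit and feed macrophages were mostly below the threshold. Of 20 measured growth factors, cytokines and receptors 3 were higher, with a median of 0.79 and a count of 1 to 2 without 1 array. That is 15% of the list, against 2.95% of all probe sets. At an unadjusted limma p under 0.05, 9 were higher and 0 lower. In 7 of the 20 every HP array was above every control array, against 7.09% of all probe sets. Ccl2, the monocyte chemoattractant, was at 8.66 (adjusted p = 0.0043) and passed without any 1 array, and its deviations had an r of 0.196 with Gpnmb, 0.179 with Mmp12 and 0.514 with Lgals3. Il34, a ligand of the macrophage growth factor receptor (3.43, 0.042), and Il10ra (3.27, 0.048) lost their calls without 7 and 8 of the 8 arrays. Il1b was at 2.97 (0.064).

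**Figure D4:**
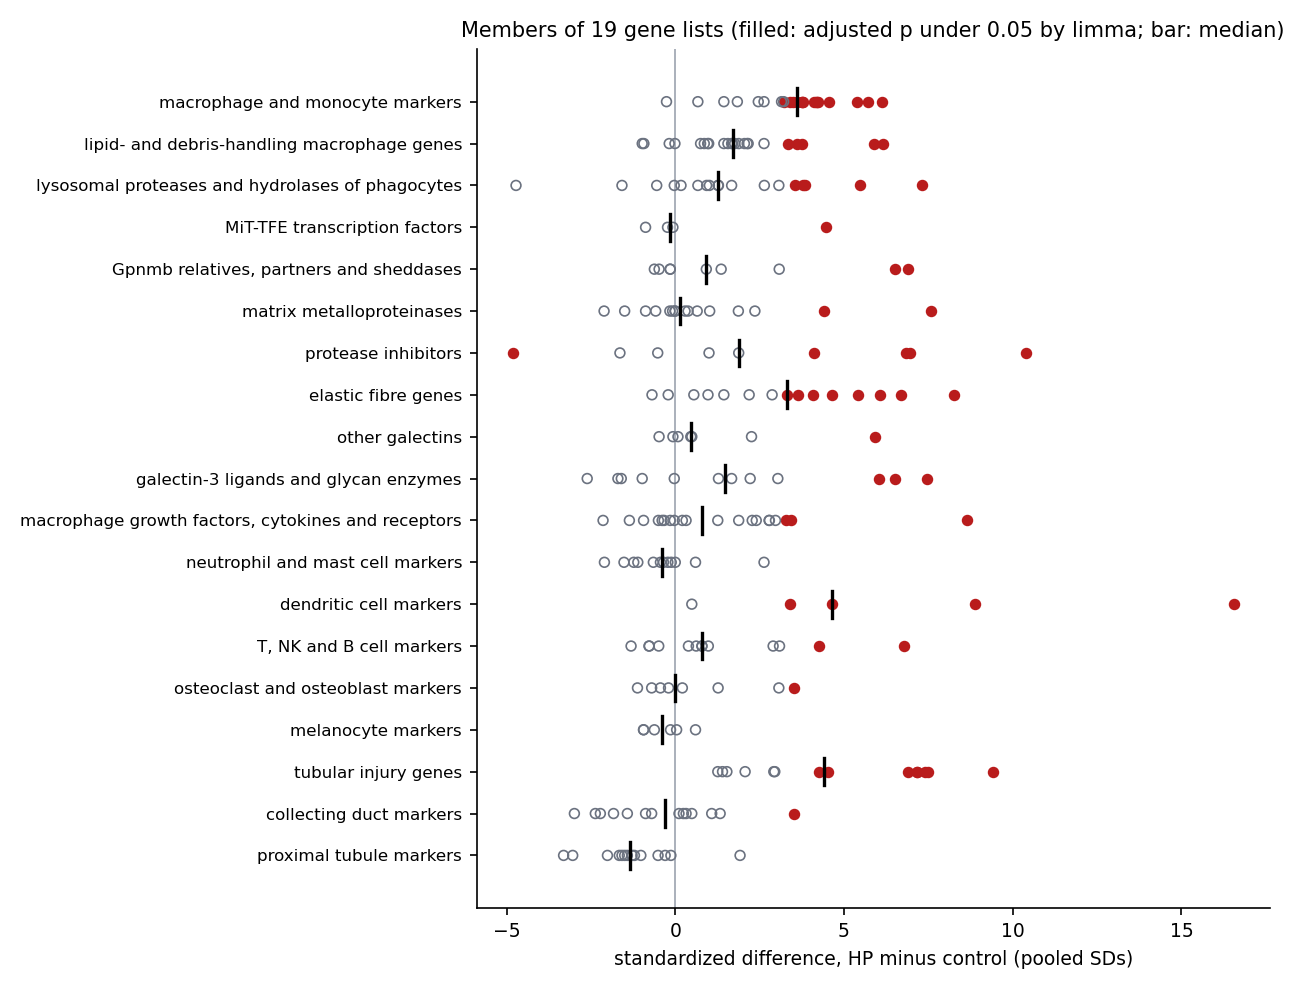
Standardized difference between diets (HP minus control, in pooled SDs, horizontal axis) of each measured gene of the 19 lists (vertical axis), with filled points for genes with a limma adjusted p under 0.05 and a bar at each list's median. Macrophage and monocyte markers, dendritic cell markers, tubular injury genes and elastic fibre genes have medians of 3.30 or more, while the medians of matrix metalloproteinases and of other galectins are 0.14 and 0.46.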

How the data were processed

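Kidney RNA of 8 rats was hybridized to Affymetrix whole-genome rat arrays, and the authors summarized the deposited log2 values (base not stated, read as log2) from the probe intensities of all 8 arrays together with DFW. Software versions are not given in the sources used here. The 31099 probe sets included 57 Affymetrix controls, which were dropped. Diets were compared over the other 31042 with limma 3.58.1 in R 4.3.3 (prior degrees of freedom 0.772) at an adjusted p (Benjamini-Hochberg) under 0.05. The p-values set the difference between diets against the spread between rats picked as average, which may be smaller than that of unselected rats. Standard errors are the pooled ones within diets, without moderation. Means, SDs, correlations and figures were made with Python 3.11.15. Precision is limited by having 4 arrays per diet. Platform annotation gave 1 symbol to 20826 probe sets, several to 436 and none to 9780.

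The members and the gene lists were chosen with earlier results of these data known, and the lists were written from general knowledge. Of 261 listed genes 231 were measured, each by its probe set of highest mean. Named were the members, the 5 genes whose deviations followed each member most closely, up to 4 genes of smallest p in each list described, all genes of lists of at most 10, and the neighbours in the order of variation. Motifs were chosen after the promoters had been seen. Alternatives were median centring, quantile normalization, exclusion of the dimmest 25% of probe sets, limma without moderation or with trend and robust moderation, the replicate number as a block, rank products (16 pairs, 1000 permutations), every probe set of a gene, and each array left out in turn. Blood, urine and histology were not analysed here.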

Additional observations from a re-analysis of the deposited data

Results flagged for a closer look

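In 10 of 210 groups of 4 arrays that were checked, the highest or lowest array lay apart from the others by more than Dixon's critical share of the range of its group, and chance gives about 1 in 20. Among the members this was Lgals3, in which control 4 lay above the other control arrays by 0.85 of their range. Among the genes that followed the members, control 1 was high in Fcgr2b (0.866) and control 3 low in Ryr2 (0.937). In the lists HP 2 was high in Cd3d (0.841) and in Il10ra (0.832), and HP 4 was high in Tpsb2 (0.88) and low in Sdc4 (1.0). Control 4 was low in Ctsz (0.837), control 3 in Lgals7 (0.84) and control 2 in Timp3 (0.863).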

How the results depend on the processing

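The differences of Gpnmb, Mmp12 and Lgals3 kept their direction under every alternative that was run. Without 1 array the standardized difference was 5.10 to 8.75 for Gpnmb, 4.07 to 6.73 for Mmp12 and 4.37 to 8.48 for Lgals3, highest without HP 4 for Gpnmb and without HP 2 for the others, and the SD ratio of Lgals3 was 1.82 to 22.4. The correlation of deviations was 0.932 to 0.992 for Gpnmb and Mmp12, 0.703 to 0.967 for Gpnmb and Lgals3, and 0.71 to 0.967 for Mmp12 and Lgals3 without 1 array, each lowest without HP 2. By Spearman it was 0.857, 0.405 and 0.548, with deviations scaled by the SD of their diet 0.600, 0.186 and 0.707, and without HP 2 and HP 4, the arrays farthest from the median deviation of the first gene, a choice made after the data had been seen, 0.807, -0.396 and 0.0784.

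Counts of calls moved more. Probe sets called higher (915 as reported) numbered 78 after median centring, 316 after quantile normalization, 522 without moderation and 339 to 672 without 1 array. Those called lower (350) numbered 19, 7712, 171 and 79 to 219, and 718 by rank products. List genes called higher (62) numbered 21, 41, 40 and 30 to 53, and those called lower (1) 0, 33, 2 and 0 to 2, with 2 after exclusion of the dimmest 25% and 3 by rank products. The median absolute difference over all probe sets is 1.53e-06, and the cause of these changes was not tested. Replicate numbers came from different rats, and same-numbered arrays correlated by 0.00148 to 0.121 in their deviations, so they share only a number. In a fit with replicate number as block, 254 and 115 probe sets and 18 and 0 list genes were called higher and lower.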
